A study of Mus musculus with 34 samples.

Results

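Nfil3 (nuclear factor, interleukin 3 regulated, also called E4BP4) was followed across every group of an array study of mouse macrophages given LPS with or without IL-10 or IL-6. It was taken as every probe set that the platform's probe-to-gene table names Nfil3, which gave 2 probe sets, 102955_at and 101805_f_at, for 1 gene of the 8251 genes that the table names singly. Both reached 200 signal units on 2 or more arrays, the minimum set for testing. The probe set of higher mean signal, 102955_at, gives the values below unless the other is named. Nfil3 was chosen for its high signal with both cytokines at 45 min. The 45 min values are therefore given as a description with no test, and tests are given for the 180 min arrays, which that choice did not use.

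The cells were bone marrow-derived macrophages, grown from marrow for 7 days with the macrophage growth factor CSF-1 and rested for 1 h in complete DMEM. The stimulated cells came from wild-type, IL-6-/- or IL-10-/- mice. All received LPS at 100 ng/ml, the bacterial lipopolysaccharide that triggers Toll-like receptor 4. In each genotype LPS was given alone for 45 or 180 min, with IL-10 at 10 ng/ml for 45 or 180 min, or with IL-6 at 2 ng/ml for 45 min, so there was no 180 min IL-6 group. Each of these 15 groups had 2 arrays, except that LPS alone in IL-6-/- cells had 1 array at each time. A 16th group of 4 arrays held resting cells with no LPS. The genotype of the resting cells is not in their labels, which name L cell conditioned medium as the source of CSF-1, where the stimulated cells' labels name CSF-1 itself. The labels call the arrays biological replicates without saying how many mice they came from, so a p-value here reflects array-to-array spread, which may be technical. The other 2 of the 34 arrays entered no group: the label of one gives no genotype, and the labels of the other give both 45 and 180 min.

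NFIL3 is a basic leucine zipper protein that binds D-box DNA elements, mostly as a repressor, where the related proteins DBP, TEF and HLF activate. It is known for its roles in the circadian clock and in the development of natural killer and other innate lymphoid cells, and in macrophages as a repressor of Il12b, which encodes the p40 chain shared by IL-12 and IL-23. IL-10 and IL-6 bind different receptors, but both act through Janus kinases and the transcription factor STAT3. SOCS3 binds the IL-6 receptor chain gp130 and limits IL-6 signalling, whereas IL-10 signalling escapes it.

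Nfil3 lies on chromosome 13, from 52967209 to 52982878 on the minus strand (GRCm38.p6, RefSeq). The array measures transcripts and not binding, so its promoter window is shown only to place the gene beside Socs3, a well known STAT3 target that is also measured here. Each window runs from 250 bases before to 50 bases after a RefSeq transcript start. The Nfil3 window is chr13:52980990-52981289 and the Socs3 window is chr11:117969317-117969616, both on the minus strand. The Nfil3 window lies inside the gene bounds given above, so its start is not the outermost one. The bases upstream of the gene's outer end, 52982878, were not searched. Capitals mark GC boxes (GGGCGG on either strand) and the core TGACG of a cyclic AMP element in Nfil3, and the match to the STAT motif TTCNNNGAA in Socs3.
Nfil3: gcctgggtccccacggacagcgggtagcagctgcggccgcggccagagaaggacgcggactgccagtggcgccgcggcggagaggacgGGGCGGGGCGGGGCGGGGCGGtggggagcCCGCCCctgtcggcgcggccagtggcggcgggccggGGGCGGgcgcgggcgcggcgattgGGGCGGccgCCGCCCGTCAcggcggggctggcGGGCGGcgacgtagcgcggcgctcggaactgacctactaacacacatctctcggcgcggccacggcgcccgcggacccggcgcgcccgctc
Socs3: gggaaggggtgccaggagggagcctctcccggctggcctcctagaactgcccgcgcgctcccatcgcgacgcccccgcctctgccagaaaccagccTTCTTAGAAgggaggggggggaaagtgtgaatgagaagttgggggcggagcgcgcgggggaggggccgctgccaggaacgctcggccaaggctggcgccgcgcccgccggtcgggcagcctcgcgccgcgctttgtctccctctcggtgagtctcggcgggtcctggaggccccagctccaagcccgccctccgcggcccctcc
The Nfil3 window was 81.7% G and C, against a median of 52.7% over 32851 RefSeq windows of this length, of which 99.4% had less. It held 9 GC boxes, some of which share a base with the next, and 35.7% of all windows held at least 1. It held 1 TGACG, on the minus strand of the window at position -59, where it overlaps a GC box by a base, and 20.8% of windows held one. On both strands it held no TTCNNNGAA (8.3% of windows), no full TGACGTCA (1.79%), no D-box TTANGTAA (2.32%), no TGANTCA (7.81%) and no TATAAA (13.6%). The Socs3 window held 1 TTCNNNGAA, at position -154. A match is a description of letters, and the absence of one says only that these letters are not in this window.

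The arrays carried the markers of macrophages: all 10 of the markers listed for that cell type had a signal over 200 on every array, among them Lyz2, Cd68 and Csf1r. The summed signal of 11 T, B and NK cell markers was at most 1927 on any array, against at least 107750 for the 10 macrophage markers, and none was at 0. The sum of 9 neutrophil markers was 534.6 to 3944. That of 11 stromal markers was 1136 to 2827 on resting arrays. On stimulated arrays the stromal sum was 5823 to 6525 in IL-6-/- cells and 8488 to 11524 in the other genotypes. The labels' genotypes could not be checked from the deleted genes. Il10 gave a signal of 1511.8 to 10596 on the arrays labelled IL-10-/-, against 2412.5 to 4512.1 on wild-type stimulated arrays, and Il6 gave 427.5 to 8400.2 on those labelled IL-6-/-. Where these probe sets lie relative to the deletions is not given in the sources used here, so genotype names below are those of the labels. Resting replicate 4 stood apart: its correlation with the other resting arrays over all tested probe sets was 0.863 to 0.885, against 0.911 to 0.930 among those 3, and the comparisons with resting cells are given without it too.

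At 45 min, Nfil3 was low with LPS alone and high when either cytokine was added. With LPS alone, the signals were 292.5 and 339.7 in wild-type cells, 341.6 and 282.1 in IL-10-/- cells, and 296.3 in the 1 array of IL-6-/- cells. With IL-10 added, they were 1131.3 and 1136.4 in wild-type cells, 2221.3 and 1807.9 in IL-10-/- cells, and 2179 and 1693.5 in IL-6-/- cells. With IL-6 added, they were 1510.8 and 1963.1 in wild-type cells, 1279.5 and 1325.8 in IL-10-/- cells, and 1563 and 1412.1 in IL-6-/- cells. The 12 arrays with a cytokine (1131.3 to 2221.3) did not overlap the 5 arrays without one (282.1 to 341.6), in any genotype. The resting arrays read 219.5, 229.2, 195.8 and 497.8. With LPS alone for 45 min, the difference of wild-type cells from these on the log2(signal + 50) scale was 0.20 ± 0.23 (SE), and 0.47 ± 0.17 without resting replicate 4, but -0.22 ± 0.27 with the other probe set. All 5 arrays with LPS alone at 45 min lay above the other 3 resting arrays and below replicate 4.

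**Figure D1:**
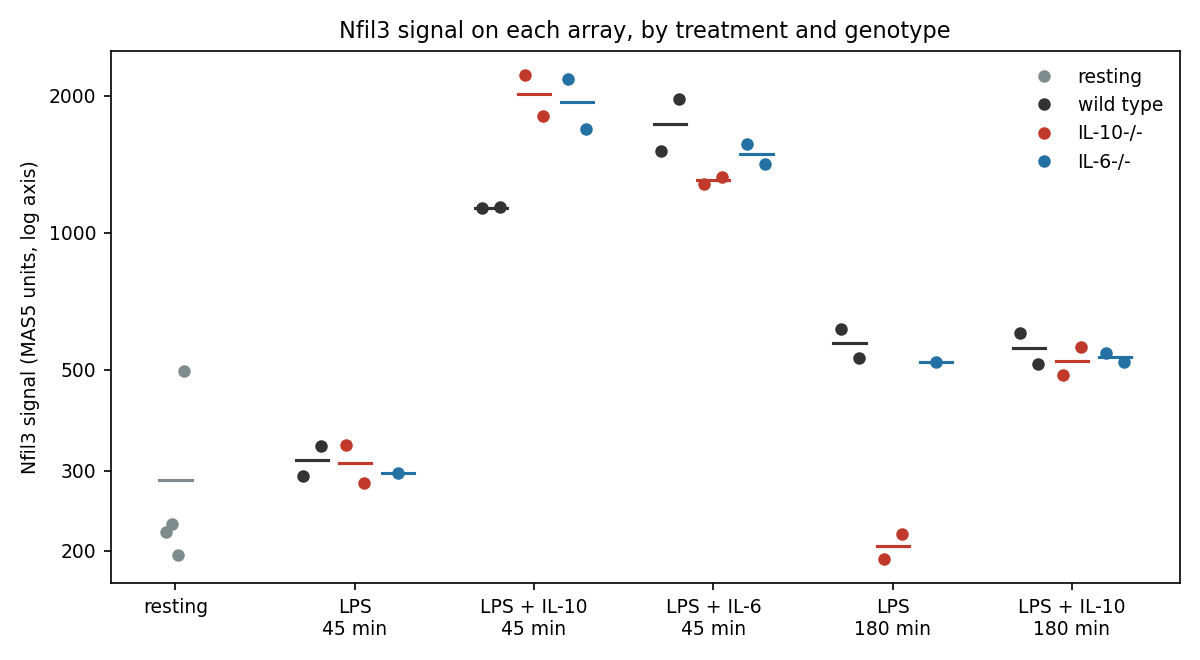
Nfil3 signal of 102955_at on each of the 32 grouped arrays (MAS5 units, log axis) by treatment, with a point per array coloured by genotype and a bar at the group mean. The 12 arrays with IL-10 or IL-6 at 45 min lie between 1131.3 and 2221.3, and the IL-10-/- arrays with LPS alone at 180 min lie at 191.9 and 217.2, below the other 180 min arrays.

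Averaged over the 3 genotypes, the 45 min log2 difference from LPS alone was 2.24 ± 0.17 (SE, 6 against 5 arrays) for IL-10, a 4.72-fold difference on the log2(signal + 50) scale, and 2.11 ± 0.17 for IL-6, a 4.32-fold difference. Among 8224 tested probe sets, ordered by log2 difference from the highest down, Nfil3 stood at place 8 for IL-10 and place 5 for IL-6. By limma's adjusted p under 0.05, 0.693% of tested probe sets were higher with IL-10 and 0.535% with IL-6; the gene was chosen from these contrasts, so nothing is read from its being among them. The 2 comparisons share the 5 arrays with LPS alone.

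By genotype, the cytokine with the higher Nfil3 signal differed. In wild-type cells the log2 difference was 1.70 ± 0.27 with IL-10 and 2.28 ± 0.27 with IL-6, so the IL-10 arm lay below the IL-6 arm by a log2 difference of -0.58 ± 0.27. In IL-10-/- cells it was 2.51 ± 0.27 with IL-10 and 1.91 ± 0.27 with IL-6, and the IL-10 arm lay above by 0.60 ± 0.27. In IL-6-/- cells it was 2.51 ± 0.33 and 2.15 ± 0.33, and the IL-10 arm lay above by 0.36 ± 0.27. The wild-type arrays of the 2 arms did not overlap, nor did the arrays of the 2 arms in either knockout. With the other probe set, IL-10 minus IL-6 was -0.06 ± 0.31 in wild-type cells, where the arrays of the 2 arms overlapped. It was 0.56 ± 0.31 in IL-10-/- and 0.54 ± 0.31 in IL-6-/- cells. The difference between genotypes was not tested.

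**Figure D2:**
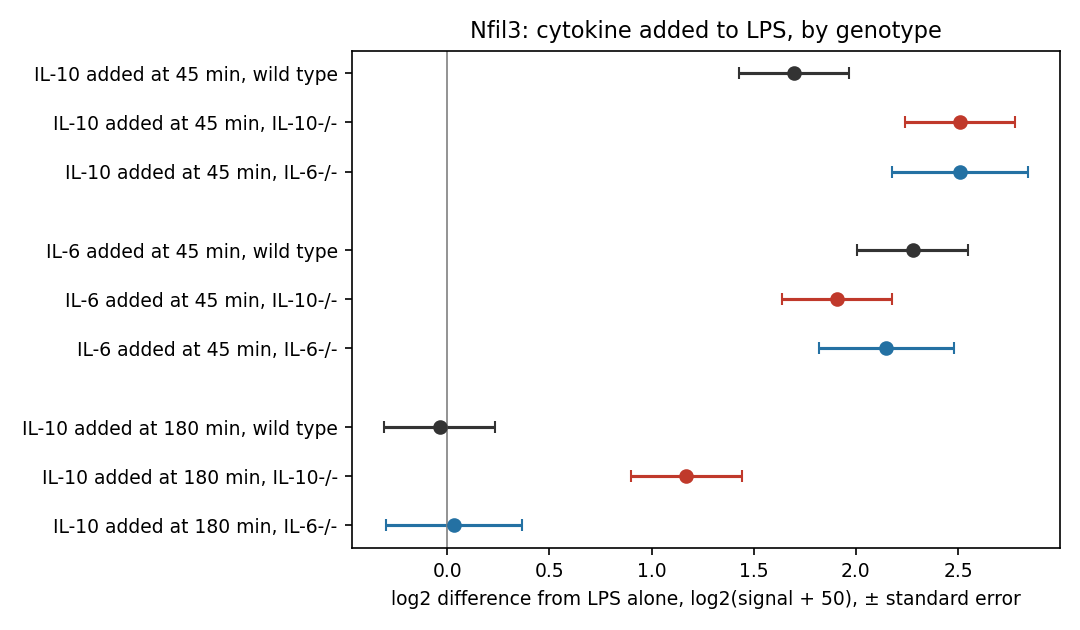
Log2 difference in Nfil3 between LPS with a cytokine and LPS alone, by genotype (points, with bars for the standard error from the fit over all groups). All 6 values at 45 min lie between 1.70 and 2.51, and at 180 min only the IL-10-/- value, 1.17, lies away from 0.

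By 180 min the high signal with IL-10 had passed. From 45 to 180 min with LPS and IL-10, the group mean went from 1134 to 557.5 in wild-type cells, from 2015 to 523.5 in IL-10-/- cells and from 1936 to 532.4 in IL-6-/- cells. The log2 differences between the times were -0.97 ± 0.27, -1.84 ± 0.27 and -1.76 ± 0.27. With LPS alone the mean went the other way in wild-type cells, from 316.1 to 573.2 (log2 difference 0.77 ± 0.27), and in the single arrays of IL-6-/- cells, from 296.3 to 519.1 (0.72 ± 0.38). In IL-10-/- cells with LPS alone it went from 311.9 to 204.6 (-0.50 ± 0.27), whereas the other probe set gave 0.28 ± 0.31. These differences use the 45 min arrays and carry no test.

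At 180 min, the 6 stimulated groups therefore fell into a common level and 1 low group. The signals were 615.4 and 530.9 with LPS alone in wild-type cells, 600.9 and 514.1 with IL-10 in wild-type cells, 519.1 with LPS alone in IL-6-/- cells, 544.6 and 520.1 with IL-10 in IL-6-/- cells, and 485.7 and 561.3 with IL-10 in IL-10-/- cells. With LPS alone in IL-10-/- cells they were 191.9 and 217.2. These 2 arrays lay below all of the other 9, which spanned 485.7 to 615.4.

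With LPS alone for 180 min, Nfil3 was lower in IL-10-/- than in wild-type cells by a log2 difference of -1.29 ± 0.27 (SE, 2 against 2 arrays), or 2.45-fold lower (limma, adjusted p = 0.0057). In that comparison 1.86% of the 8224 tested probe sets were lower, 1.01% higher, and 2.87% were called in either direction. The call rests on few arrays. It was lost without replicate 1 of the wild-type arrays (-1.19, adjusted p = 0.0699) or replicate 1 of the IL-10-/- arrays (-1.22, adjusted p = 0.0755), in a fit on resting and 180 min arrays alone (adjusted p = 0.0758), and with the other probe set (-0.50, adjusted p = 0.609). Beside it, no listed marker of another cell type was called by limma: 0 of 9 stromal, 0 of 6 neutrophil and 0 of 5 T, B and NK cell genes, with 0, 0 and 1 of them at an unadjusted p under 0.05. In IL-6-/- cells the difference from wild type was -0.13 ± 0.33 (limma, adjusted p = 0.982), with a 95% interval of -0.81 to 0.56, and 0.182% of probe sets were called.

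Adding IL-10 for 180 min raised Nfil3 in IL-10-/- cells by a log2 difference of 1.17 ± 0.27, or 2.25-fold (limma, adjusted p = 0.010), where 2.27% of tested probe sets were higher and 3.54% were called in either direction. This comparison shares the IL-10-/- arrays with LPS alone with the one before, so the 2 calls rest in part on the same low signals. It was lost without replicate 1 (1.10, adjusted p = 0.111) or replicate 2 (1.24, adjusted p = 0.055) of the arrays with LPS alone, without replicate 2 of the arrays with IL-10 (1.08, adjusted p = 0.137), in the fit on resting and 180 min arrays alone (adjusted p = 0.101), and with the other probe set (0.31, adjusted p = 0.951). The summed signal of 9 neutrophil markers rose in this comparison too, from 1230 to 1351 with LPS alone to 2363 to 2425 with IL-10. It also rose with IL-10 at 180 min in the other genotypes. The sums went from 1178.5 to 1268.3 up to 1875.4 to 1956 in wild-type cells. In IL-6-/- cells they went from 1356.5 on 1 array to 3456.9 to 3944.2. Of the 6 tested neutrophil markers only S100a8 was called higher in IL-10-/- cells (limma, adjusted p = 0.000644). The part of S100a8 and the other neutrophil markers in the Nfil3 result was not tested. In bulk samples, fewer cells of a type and less RNA per cell cannot be told apart.

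In the other genotypes no effect of added IL-10 on Nfil3 was detected at 180 min. The log2 difference was -0.04 ± 0.27 in wild-type cells (limma, adjusted p = 0.999), with a 95% interval of -0.60 to 0.52, where 0.134% of probe sets were called. It was 0.03 ± 0.33 in IL-6-/- cells (limma, adjusted p = 0.998; interval -0.65 to 0.72), where 0.207% were called. Averaged over the 3 genotypes it was 0.39 ± 0.17 (limma, adjusted p = 0.344), and 3.82% of probe sets were called. The response in IL-10-/- cells exceeded that in wild-type cells by 1.21 ± 0.38, which did not pass the threshold over all probe sets (limma, adjusted p = 0.272; unadjusted 95% interval 0.42 to 2.00), and 0.559% did. The response in IL-6-/- cells differed from that in wild-type cells by 0.07 ± 0.43 (limma, adjusted p = 0.999), where 0.0122% were called.

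At 180 min with IL-10 added, no difference between the genotypes was detected, whereas at 45 min with IL-10 the wild-type arrays lay below those of both knockouts. With LPS and IL-10 for 180 min, Nfil3 in IL-10-/- cells differed from wild type by a log2 difference of -0.08 ± 0.27 (limma, adjusted p = 0.998; 95% interval -0.64 to 0.48), and in IL-6-/- cells by -0.06 ± 0.27 (limma, adjusted p = 0.993; interval -0.62 to 0.50). In these comparisons 0.219% and 0.182% of probe sets were called.

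Against resting cells, LPS alone for 180 min raised Nfil3 in wild-type cells by a log2 difference of 0.97 ± 0.23 (2 against 4 arrays), or 1.96-fold (limma, adjusted p = 0.00216), a comparison in which 33.8% of probe sets were called, 14.4% higher and 19.4% lower. Both LPS arrays (615.4 and 530.9) lay above all 4 resting arrays, of which replicate 4, at 497.8, was far above the other 3 (195.8 to 229.2). This comparison shares the wild-type arrays with LPS alone with those of genotype and of added IL-10. Without resting replicate 4 the log2 difference was 1.23 (adjusted p = 6.24e-06), and with the other probe set the call was lost (0.22, adjusted p = 0.57). The resting cells' genotype is not in the labels and their growth medium is named differently, which cannot be told apart from the effect of LPS. Stromal markers moved with this comparison: 8 of 9 tested were higher with LPS, and the summed signal of all 11 on the array was 1136 to 2827 in resting and 8488 to 8729 in LPS arrays. Of 6 neutrophil markers 3 were lower, with summed signals of 1334 to 3343 in resting and 1179 to 1268 in LPS arrays for the 9 on the array. Without resting replicate 4, 8 of 9 stromal markers were higher and 1 of the 4 neutrophil markers then tested was lower. The part of either in the result was not tested.

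Ordered by mean signal, the 16 groups formed steps. The 6 cytokine groups at 45 min came first, from 2015 (IL-10-/- with IL-10) through 1936 (IL-6-/- with IL-10), 1737 (wild type with IL-6), 1488 (IL-6-/- with IL-6) and 1303 (IL-10-/- with IL-6) to 1134 (wild type with IL-10). Next came 5 of the 6 groups at 180 min, from 573.2 to 519.1, then LPS alone at 45 min, from 316.1 to 296.3, the resting cells at 285.6, and IL-10-/- cells with LPS alone for 180 min at 204.6. The pooled SD within groups was 0.27 on the log2(signal + 50) scale. Of the 15 steps between neighbours, 12 were smaller than this SD. The 3 larger ones were 0.93 below the 45 min cytokine groups, 0.64 below the common 180 min level, and 0.32 between resting cells and the lowest group, whose arrays overlapped.

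The other probe set, 101805_f_at, also read higher with either cytokine than with LPS alone at 45 min, with smaller differences. Its suffix marks probes shared within a family of sequences, so it may also read other transcripts. Its 12 cytokine arrays at 45 min (633.5 to 1261.7) did not overlap its 5 arrays with LPS alone (198.8 to 444.4), and the mean log2 differences were 1.31 ± 0.19 for IL-10 and 0.96 ± 0.19 for IL-6. Over the 32 arrays the log2 signals of the 2 probe sets, which share the same RNA, correlated with r = 0.854. At 180 min this probe set gave no call for Nfil3. The IL-10-/- arrays with LPS alone read 288.4 and 444.6 and overlapped the other 180 min arrays (410.3 to 557.8), and the log2 difference from wild type was -0.50 ± 0.31 (limma, adjusted p = 0.609). IL-10 added to IL-10-/- cells gave 0.31 ± 0.31 (limma, adjusted p = 0.951). LPS at 180 min against resting gave 0.22 ± 0.27 (limma, adjusted p = 0.57), where the resting arrays read 561.6, 450.6, 250.5 and 602.9.

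**Figure D3:**
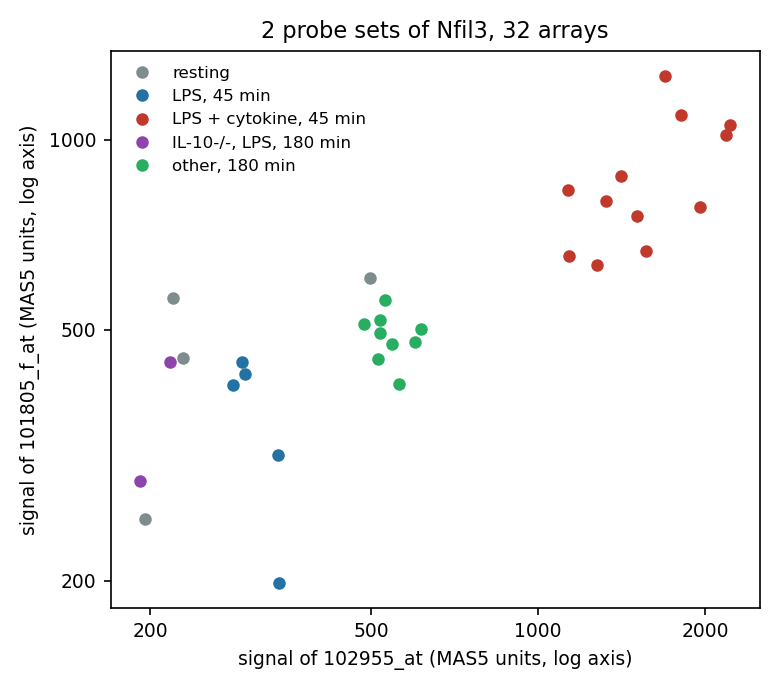
Signal of the 2 Nfil3 probe sets against each other (MAS5 units, both axes log), with a point per array for the 32 grouped arrays, coloured by treatment. The cytokine arrays at 45 min separate on both axes, whereas the IL-10-/- arrays with LPS alone at 180 min separate from the other 180 min arrays only on the axis of 102955_at.

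Nfil3 was set beside 16 genes linked to STAT3 in macrophages, all of them tested. The list was written with earlier results of these data known, so its counts beside the background are a description. At 45 min, limma called 5 of the 16 higher and 0 lower with IL-10, and 5 higher and 0 lower with IL-6, with 9 and 6 at an unadjusted p under 0.05, where 0.693% and 0.535% of all probe sets were higher. Those called with each cytokine, against the same arrays with LPS alone, were Socs3 (2.36-fold with IL-10 and 1.85-fold with IL-6), the IL-4 receptor gene Il4ra (3.43 and 2.79), the IL-1 antagonist gene Il1rn (3.97 and 2.05), the transcription factor gene Cebpd (2.62 and 2.02) and the stress response gene Gadd45g (11.6 and 3.52). The median log2 difference over the 16 was -0.01 with IL-10 and 0.08 with IL-6, against -0.01 and -0.02 over all tested probe sets. The Nfil3 differences were 4.72-fold and 4.32-fold, the latter above each of the 5 values for IL-6.

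At 180 min with LPS alone, 8 of the 16 were lower in IL-10-/- than in wild-type cells, 0 higher, where 1.86% of all probe sets were lower, and their median log2 difference was -1.11 against 0.04 over all tested probe sets. Il4ra was lower by a log2 difference of -3.54, the transcriptional repressor gene Bcl6 by -2.73, the phosphatase gene Dusp1 by -2.62, Il1rn by -2.40 and the NF-kappa-B regulator gene Bcl3 by -2.30. The Nfil3 difference of -1.29 was close to that of Cebpb, -1.25. When IL-10 was added to IL-10-/- cells, 10 of the 16 were higher and 0 lower, where 2.27% of all probe sets were higher, with Il4ra at 16.5-fold, Dusp1 at 11.2-fold, Il1rn at 11.1-fold, Bcl6 at 8.13-fold and Bcl3 at 4.49-fold, beside 2.25-fold for Nfil3. Their median was 1.72 against -0.03 over all tested probe sets. These 2 comparisons share the low arrays, as for Nfil3, and the counts from this list are a description here too. In wild-type cells IL-10 raised 1 of the 16, Il1rn (2.08-fold; limma, adjusted p = 0.00366), where 0.0608% of all probe sets were higher, and 3 had an unadjusted p under 0.05.

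**Figure D4:**
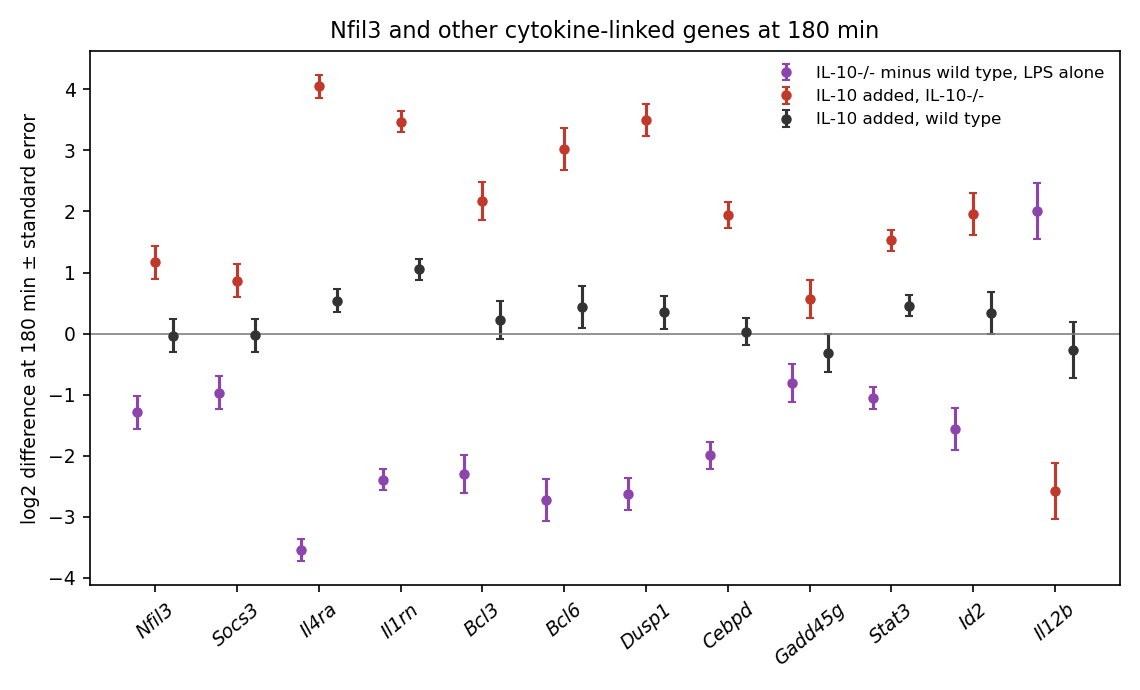
Log2 differences at 180 min (points, with bars for the standard error) for Nfil3 and 11 other genes, in 3 comparisons: IL-10-/- minus wild type with LPS alone, and IL-10 added in IL-10-/- and in wild-type cells. Nfil3 lies at -1.29, 1.17 and -0.04, and Il12b at 2.01, -2.58 and -0.27; the first pair of comparisons shares the IL-10-/- arrays with LPS alone.

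Socs3 was called with both cytokines at 45 min and missed the threshold at 180 min. Its signal with LPS alone at 180 min was 8703.3 and 11448.4 in IL-10-/- cells against 18486.3 and 20649.9 in wild-type cells, a log2 difference of -0.97 (limma, adjusted p = 0.0522). With IL-10 added in IL-10-/- cells the difference was 0.87 (limma, adjusted p = 0.0909). With LPS alone at 45 min, Socs3 went from a resting mean of 89.6 to 9759 in wild-type cells (a log2 difference of 5.95 without resting replicate 4), beside 0.20 for Nfil3 (0.47 without that array).

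Of 8 tested genes for the receptor chains of the 2 cytokines, their kinases and STAT3, limma called 0 at 45 min with either cytokine, with 3 (IL-10) and 2 (IL-6) at an unadjusted p under 0.05, where 0.693% and 0.535% of all probe sets were higher. At 180 min with LPS alone, 3 were lower in IL-10-/- cells (1.86% of all probe sets): Il6st, which encodes gp130 (-1.17), Stat3 (-1.05) and the kinase gene Jak2 (-0.79). Adding IL-10 to IL-10-/- cells raised 4 (2.27% of all probe sets were higher): Stat3 (1.53), Il6st (1.15), Jak1 (0.98) and Jak2 (0.81), against the same low arrays. The genes of the IL-10 receptor chains, Il10ra and Il10rb, were not called in either comparison (limma, adjusted p of 0.376 and 0.891 for the genotypes, 0.80 and 0.999 for added IL-10).

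Genes described elsewhere as bound or regulated by NFIL3 passed the filter in 5 of 11 cases, and Il3, Il4, Il13, Per2, Eomes and Tnfsf10 did not. At 45 min limma called 0 of the 5 with either cytokine, with 1 at an unadjusted p under 0.05 for each, where 0.693% and 0.535% of all probe sets were higher, so that none of 5 is near the background. At 180 min Il12b was high where Nfil3 was low. With LPS alone its signal was 6056 to 6116.2 in IL-10-/- cells and 1416 to 1529.4 in wild-type cells, a log2 difference of 2.01 (limma, adjusted p = 0.0113; 1.01% of probe sets higher). Adding IL-10 in IL-10-/- cells brought it to 880.9 to 1084.5, a log2 difference of -2.58 ± 0.46 (limma, adjusted p = 0.000679; 1.26% of probe sets lower). In wild-type cells, where Nfil3 was not detectably changed by IL-10, Il12b differed by -0.27 (limma, adjusted p = 0.999). In the single IL-6-/- array with LPS alone, Il12b was at 626.4 while Nfil3 was at 519.1. Low Nfil3 and high Il12b signals thus occurred together in 1 of the 6 groups at 180 min, the 2 IL-10-/- arrays with LPS alone. In other groups of low Nfil3 signal Il12b was low too. With LPS alone at 45 min, Nfil3 means were 296.3 to 316.1 and Il12b means 35.25 to 132.35. In resting cells the means were 285.6 and 43.4. A link between the 2 genes was not tested. Id2, an inhibitor of basic helix-loop-helix proteins, was lower in IL-10-/- cells with LPS alone by -1.56 (limma, adjusted p = 0.00841) and rose with added IL-10 there by 1.96 (limma, adjusted p = 0.000585). Il10 is the gene deleted in IL-10-/- cells, so its transcript signal there cannot be read like that of the other genes. In the same comparisons it was lower by -0.94 (limma, adjusted p = 0.0464) and rose by 1.58 (limma, adjusted p = 0.00024). A second Il10 probe set read 1034.6 to 1617.1 over the IL-10-/- arrays at 180 min, against 1511.8 to 4698.2 for the first. Il5 and Per1 were called in neither comparison.

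Of the other IL-12 family genes, Ebi3, a chain of IL-27 and IL-35, rose with LPS at 180 min in wild-type cells by 1.29 (limma, adjusted p = 1.19e-05; 1.22 without resting replicate 4, adjusted p = 4.56e-05). It differed between IL-10-/- and wild-type cells with LPS alone by -0.75 (limma, adjusted p = 0.0781) and with added IL-10 in IL-10-/- cells by 0.72 (limma, adjusted p = 0.0934). Il12a, the p35 chain, stayed below the filter, and Il23a and Il27 were not named in the platform table.

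Of the D-box relatives, Tef alone was tested. It fell by 1.79 on the log2 scale from a resting mean of 807.4 to 225.7 at 180 min in wild-type cells (limma, adjusted p = 0.00129; -1.80 without resting replicate 4, adjusted p = 0.00239), a comparison in which 19.4% of probe sets were lower and Nfil3 rose. The 2 wild-type arrays with LPS at 180 min were far apart for Tef, at 103.9 and 347.4. In IL-10-/- cells with LPS alone, the Tef mean was 365.1 at 45 min (arrays at 120.7 and 609.5). At 180 min it was 71.2 (62.2 and 80.2). The Nfil3 mean of 102955_at was lower at 180 min in these cells too. Between IL-10-/- and wild-type cells with LPS alone for 180 min, Tef differed by -1.03, which did not pass the threshold. Dbp was below the filter, with a mean of 119.7 in resting cells and 11.7 with LPS at 180 min, and Hlf was not named in the platform table. With IL-10 or IL-6 at 45 min, Tef did not pass the threshold (log2 differences of 0.26 and 0.20; limma, adjusted p = 1.00 for each).

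Of 12 tested clock genes, 5 were higher with LPS at 45 min against resting (Clock, Cry2, Arntl, Nr1d2 and Bhlhe40), and 0 lower, where 9% of all probe sets were higher. In that comparison 9 of 9 stromal markers were also higher and 3 of 6 neutrophil markers lower, and the part of either in the count was not tested. The resting cells' medium and genotype cannot be told apart from LPS here too. At 180 min 3 were higher (Bhlhe40 by 1.24, Clock by 0.87 and Cry1 by 0.56) and the clock repressor gene Per1 was lower by a log2 difference of -1.73, which is about the share of all probe sets called in that comparison, 33.8%. Without resting replicate 4 the counts were 5 higher at 45 min, where 10.1% of all probe sets were higher, and 3 higher and 1 lower at 180 min, where 34.9% were called. The cytokines moved 1 of them. Averaged over the 3 genotypes, Bhlhe40 was higher with IL-10 by 0.81 at 45 min and 0.72 at 180 min (limma, adjusted p of 0.00357 and 0.00564). Over all probe sets 0.693% were higher at 45 min and 2.04% at 180 min. With IL-6 limma called 0, with 1 at an unadjusted p under 0.05, where 0.535% of all probe sets were higher. Nfil3 was lower in IL-10-/- than in wild-type cells with LPS alone for 180 min. In that comparison limma called 0 of the 12 clock genes, with 0 at an unadjusted p under 0.05. There 2.87% of all probe sets were called, so that 0 of 12 is near the background.

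Over the 16 group means, the genes whose pattern was most like that of Nfil3 among 6069 others were Rhoh (Pearson r = 0.897), Midn (0.878), Gadd45g (0.864), the galactosyltransferase gene B4galt3 (0.863), the semaphorin gene Sema6b (0.855), the IL-17 receptor gene Il17ra (0.828), the aryl hydrocarbon receptor gene Ahr (0.816) and the prostaglandin E2 receptor gene Ptger4 (0.814). Over the 15 stimulated groups the 5 most alike were Rhoh (0.904), Sema6b (0.899), Midn (0.876), Gadd45g (0.858) and B4galt3 (0.853), all 5 among the 8. These values are a description: the points share arrays and scaling, and include the 45 min groups for which Nfil3 was chosen. Socs3 stood at place 289 over 16 groups (r = 0.483) and place 17 without the resting cells (r = 0.750). Stat3 (0.092), Bcl3 (0.407) and Il12b (-0.451) were less alike.

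These genes differed from Nfil3 in size and in the later pattern. At 45 min Rhoh was higher by a log2 difference of 0.72 with IL-10 and 0.64 with IL-6, and Sema6b by 1.98 and 1.47, so both lay closer for the 2 cytokines than Gadd45g, at 3.54 and 1.82. For Nfil3 the values were 2.24 and 2.11. At 180 min with LPS alone the difference between IL-10-/- and wild-type cells was -1.09 for Sema6b, -0.81 for Gadd45g and -0.15 for Rhoh, beside -1.29 for Nfil3. Sema6b signals were low in the groups with LPS alone. At 45 min its log2(signal + 50) means there were 6.22 to 6.53, against 8.44 to 8.51 for Nfil3. At 180 min the Sema6b means were 7.41 in wild-type and 6.32 in IL-10-/- cells. This scale understates changes at low signals, so how the Sema6b differences compare in size with those of Nfil3 and Gadd45g is uncertain. None of the RefSeq promoter windows held for Rhoh, Midn, Gadd45g, B4galt3, Sema6b and Ptger4 had a TTCNNNGAA, as was the case for Nfil3. Only 8.3% of all windows had one, so nothing is read from its absence. For Il17ra and Ahr no window was held.

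**Figure D5:**
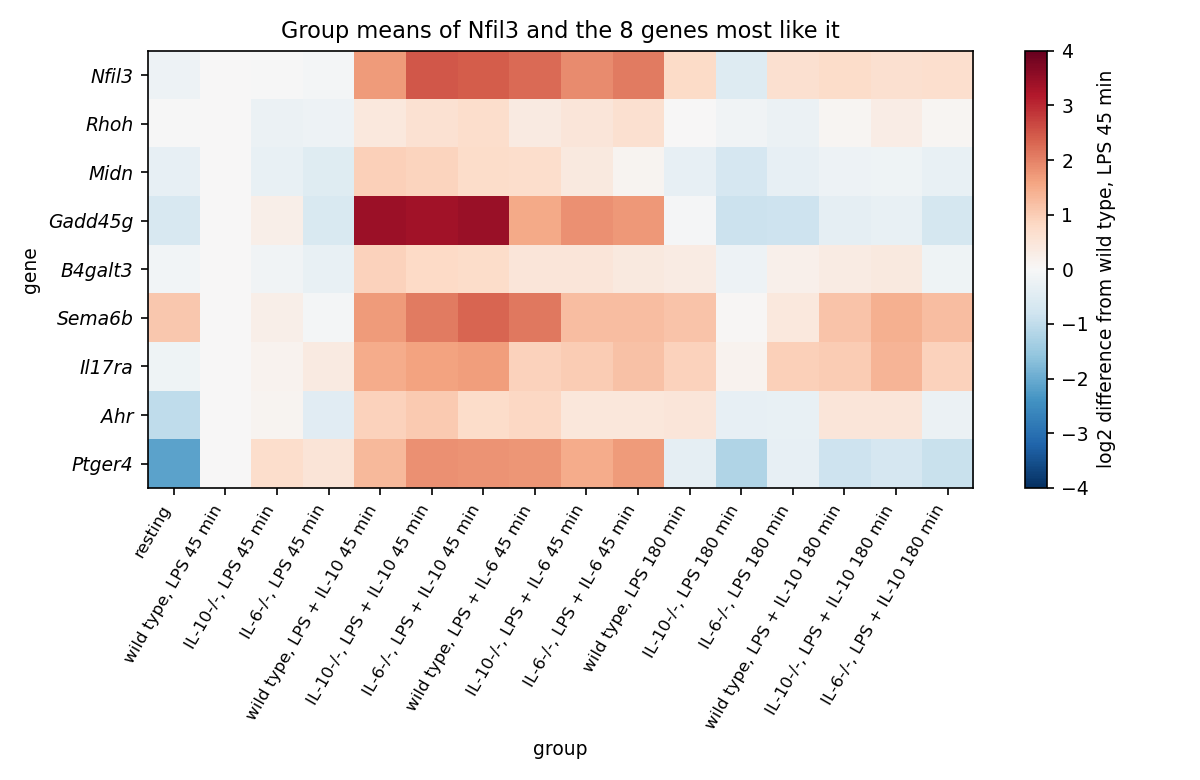
Group means of Nfil3 and the 8 genes most like it, as log2 differences from wild-type cells with LPS for 45 min (colour scale), with genes as rows and the 16 groups as columns. The 6 columns of cytokines at 45 min are the highest for Nfil3, and Gadd45g separates the IL-10 columns from the IL-6 columns, which Nfil3 does not.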

How the data were processed

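The values were hybridisation signals of total RNA from mouse macrophages on 34 Affymetrix arrays of 12488 probe sets. The deposited intensity values are MAS5 signals per the submitters' processing notes; each array's 2% trimmed mean was 500.3 to 500.4, so the authors' values carry a global scaling. Arrays give no counts, so their number limits precision. From these, log2(signal + 50) was fitted with limma 3.58.1 in R 4.3.3: 66 control probe sets were left out, 8224 reached 200 signal units on 2 or more arrays, each of 16 groups had a mean, and eBayes used a trend (16 residual degrees of freedom). P-values are 2-sided, Benjamini-Hochberg adjusted over the 8224, and called under 0.05, for 11 comparisons. Folds are on the log2(signal + 50) scale and understate changes of low genes.

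Of the probe sets, 10855 had 1 symbol in the platform table, 396 several and 1237 no entry; 10839 matched RefSeq (GRCm38.p6) by Entrez ID. A gene of several probe sets is given by that of highest mean. Named genes are Nfil3, the 8 genes of highest Pearson r with it over group means (5 over stimulated groups), all D-box and IL-12 family members, up to 4 of each other list by size of the IL-10 difference at 180 min, and Socs3, Bcl3, Stat3 and Il12b; others named were chosen after their values were seen. Members and lists were chosen with earlier results of these data known. Replicate numbers are shared between groups, and same-numbered arrays deviated together weakly. Over 23 pairs the correlations were all positive, from 0.0204 to 0.441, with a median of 0.12 and 13 over 0.1. The main fit has no block and so leaves this pairing out. A replicate block was fitted as an alternative and changed no call of the 11 tested. The procedure was tested on simulated data. Alternatives were the pseudocount, filter, quantile normalization, no trend, a replicate block, fits on fewer arrays, each array left out, and, added after seeing the data, the other Nfil3 probe set and list counts without resting replicate 4. The 2 arrays with no settled group entered no comparison.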

Additional observations from a re-analysis of the deposited data

Results flagged for a closer look

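Among the 4 resting arrays, replicate 4 had an Nfil3 signal of 497.8 against 195.8 to 229.2 in the others, a gap of 0.889 of the group's range, above Dixon's 95% critical value for 4 samples. On the log2(signal + 50) scale the gap was 0.841, and with the other probe set it was 0.568, below that value. This was the 1 group with enough arrays for the check, and chance flags about 1 in 20 such groups. Of 7 other LPS-responsive genes looked at, its signals of Socs3 (24.6), Cxcl2 (21.5) and Dusp1 (447.4) were the lowest of the 4 resting arrays, that of Il1b (348) was the highest, and those of Fos, Tnf and Nfkbia lay between.

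The order of the 2 cytokines at 45 min differed between genotypes: IL-10 minus IL-6 was -0.58 in wild-type cells, 0.60 in IL-10-/- cells and 0.36 in IL-6-/- cells on the log2 scale, with each pair of arrays on the stated side of the other. This difference was not tested. With the other probe set the values were -0.06, 0.56 and 0.54.

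The array in no group whose labels give both 45 and 180 min, from IL-6-/- cells with LPS alone, had an Nfil3 signal of 570.1, above the highest resting array (497.8).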

How the results depend on the processing

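Of 206 values of 14 Nfil3 results under the alternatives, 180 were classed as unchanged and 26 were not. Of these 26, 12 changed sign, 11 of them in differences that passed no threshold under either setting. The others lost a call or, for the untested 45 min cytokine means, kept direction but moved in size. With the other probe set, LPS at 180 min against resting gave 0.22, IL-10 added in IL-10-/- cells 0.31, IL-10-/- against wild type -0.50, LPS at 45 min against resting -0.22 (reversed), IL-10 added in IL-6-/- cells -0.089 and IL-6-/- against wild type with LPS and IL-10 0.057 (both reversed), and the 45 min means 1.31 (IL-10) and 0.96 (IL-6). A pseudocount of 200 gave 1.86 and 1.74 for those means. The fit on resting and 180 min arrays alone, which has fewer arrays, gave 1.17 (limma, adjusted p = 0.101) for IL-10 added in IL-10-/- cells and -1.29 (limma, adjusted p = 0.0758) for IL-10-/- against wild type. Leaving out an array gave 1.08 to 1.27 (adjusted p 0.049 to 0.137) and -1.39 to -1.19 (0.0377 to 0.0755) for these, and 0.85 to 1.23 for LPS at 180 min. It gave -0.14 to 0.066 for IL-10 added in wild-type cells, -0.19 to 0.021 and -0.16 to 0.046 for IL-10-/- and IL-6-/- against wild type with LPS and IL-10, and -0.033 to 0.17 for the IL-10 response in IL-6-/- minus wild-type cells, each range spanning 0. The replicate block gave 0.97 (adjusted p = 0.00303), 1.17 (0.0143) and -1.29 (0.00802) for the 3 called comparisons, and changed no call of the 11 tested; IL-10 added in IL-6-/- cells became -0.060 and its difference from wild type -0.023, both reversed. An arm left with 1 array is assumed to vary like the other groups, and the single IL-6-/- arrays with LPS alone could not be left out. The cause of these changes was not tested.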

Other observations

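The array whose label gives LPS for 45 min and no genotype had an Nfil3 signal of 278.6 with 102955_at and 238.0 with 101805_f_at. The array of IL-6-/- cells with conflicting times had 570.1 and 410.5. For comparison, the grouped IL-6-/- arrays with LPS alone had 296.3 and 425.4 at 45 min, and 519.1 and 518 at 180 min, in the same order of probe sets.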
